A study of Mus musculus with 11 samples.

Results

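Infarcted cortex 1 m after a photothrombotic stroke was compared with the cortex of naive mice. The comparison takes 3 of the 11 libraries of the study: 1 naive library, 1 of the infarcted side at 1 m, and 1 of the infarcted side at 1 m with levetiracetam (LEV). Of the 22377 genes in the table, 16181 (72.3%) had a mean of at least 1 CPM (tags counted, scaled to the same total in every library) over these 3 libraries and were tested, and the other 6196 were not. A gene was read as higher or lower only where both 1 m libraries lay on the same side of naive, with no size limit beyond that.

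The mice were male C57BL/6N. In photothrombosis, the dye rose bengal is injected and a 3.5 mm circle of the left parietal cortex is lit, so that the vessels under the light clot. Naive mice are labelled as untreated controls, and the other 10 libraries come from either side of the cortex, infarcted or not, at 7 d and at 1 m, each without and with levetiracetam, and at 2 m after 2 weeks of withdrawal. Each group has 1 library, made by CAGE (cap analysis of gene expression), which counts short tags at the capped 5′ ends of RNAs. Levetiracetam is given against seizures and acts on SV2A, a protein of synaptic vesicles, and the study's text has it in drinking water at 5 mg/mL. That text places the drug from 1 m on, for 2 weeks with 1 week of withdrawal, whereas the labels have it at 7 d as well and give 2 weeks of withdrawal, and the labels were followed. Ages of 8 to 10 and 65 to 85 weeks are given for the study and not for each library. Electrodes on the skull and injections of pentylenetetrazol, a GABA-A receptor blocker that provokes seizures, are described without saying which libraries come from such mice. RNA was taken from whole cortex, and the number of mice behind a library, the share of a side that was lesion, and whether both sides came from the same mice are not given in the sources used here.

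A stroke kills the tissue of its core, and glia react around it for weeks. Microglia and incoming macrophages take up debris and switch on genes of phagocytosis, lysosomes and lipid transport, complement proteins tag material for removal, and astrocytes build up the intermediate filaments GFAP and vimentin at the rim of the lesion. In bulk tissue such as this, more or fewer cells of a type and more or less RNA per cell cannot be told apart.

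The 3 libraries hold 12928291 (naive), 13925503 (untreated) and 19208153 (LEV) tags, with 94.2% to 95.4% of them in genes of the table, and the 11 libraries range from 12928291 to 21000367. The floor of 3 tags is 0.232 CPM in naive, 0.215 CPM in the untreated and 0.156 CPM in the LEV library. Markers of cortical projection neurons were present in all 3, with Slc17a7, the vesicular glutamate transporter of these cells, at 743, 615 and 1516 CPM and the cortical factor Tbr1 at 64.97, 55.8 and 49.9 CPM in naive, untreated and LEV. The naive library stood apart in choroid plexus genes: the 12 listed markers summed to 483 CPM there, 111 and 125 CPM in the untreated and LEV infarcted libraries and 113 and 308 CPM on the other side, of which Ttr alone was 349.7 CPM in naive and 195 CPM in the LEV library of the other side. Because naive is 1 library, every difference from it contains whatever is particular to that library, and the p-values measure only the spread between these libraries, which may be technical.

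CAGE tags start at promoters, so the starts of 6 genes are shown, picked by hand from those described below. Of these, Ctss and C1qc did not pass the test against naive. Each sequence is 1 unbroken strand of 250 bases before to 50 after the annotated RefSeq start (GRCm38.p6). Gfap and Lcn2 stand for astrocytes, Gpnmb and Ctss for phagocytes, C1qc for complement and Ifitm3 for the interferon response. Capitals mark any match, on either strand, to 1 of 5 motifs: GAGGAAGT (PU.1/Ets), the interferon response element (GAAA, any 2 bases, GAAA), TTCCNGGAA (STAT), NF-kB (GGG, any 2 bases, TTTCC) and TGANTCA (AP-1), where N is any base.
Gfap, chr11:102897151-102897450, minus strand: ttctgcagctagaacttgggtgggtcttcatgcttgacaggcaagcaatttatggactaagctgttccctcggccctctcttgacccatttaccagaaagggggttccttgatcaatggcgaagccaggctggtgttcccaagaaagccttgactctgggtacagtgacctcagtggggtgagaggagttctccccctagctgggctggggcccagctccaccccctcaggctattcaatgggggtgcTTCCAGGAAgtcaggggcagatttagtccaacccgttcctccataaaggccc
Lcn2, chr2:32387690-32387989, minus strand: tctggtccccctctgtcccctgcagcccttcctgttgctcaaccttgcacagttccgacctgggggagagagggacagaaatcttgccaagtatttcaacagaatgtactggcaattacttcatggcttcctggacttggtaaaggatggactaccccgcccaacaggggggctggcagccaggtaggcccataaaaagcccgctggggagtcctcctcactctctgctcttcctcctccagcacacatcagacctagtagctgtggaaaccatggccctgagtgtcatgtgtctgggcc
Gpnmb, chr6:49036268-49036567, plus strand: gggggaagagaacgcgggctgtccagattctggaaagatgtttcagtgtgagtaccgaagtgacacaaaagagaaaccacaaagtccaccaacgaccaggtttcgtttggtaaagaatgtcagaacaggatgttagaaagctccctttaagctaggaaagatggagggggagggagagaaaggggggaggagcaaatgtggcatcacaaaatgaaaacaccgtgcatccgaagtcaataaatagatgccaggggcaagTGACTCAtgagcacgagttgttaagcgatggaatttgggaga
Ctss, chr3:95526536-95526835, plus strand: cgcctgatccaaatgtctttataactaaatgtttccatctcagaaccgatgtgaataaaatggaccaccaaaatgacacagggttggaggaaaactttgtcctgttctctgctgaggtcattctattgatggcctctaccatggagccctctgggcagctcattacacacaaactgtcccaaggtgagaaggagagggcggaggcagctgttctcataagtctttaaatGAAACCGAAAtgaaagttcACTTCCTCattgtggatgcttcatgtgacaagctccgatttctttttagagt
C1qc, chr4:136892865-136893164, minus strand: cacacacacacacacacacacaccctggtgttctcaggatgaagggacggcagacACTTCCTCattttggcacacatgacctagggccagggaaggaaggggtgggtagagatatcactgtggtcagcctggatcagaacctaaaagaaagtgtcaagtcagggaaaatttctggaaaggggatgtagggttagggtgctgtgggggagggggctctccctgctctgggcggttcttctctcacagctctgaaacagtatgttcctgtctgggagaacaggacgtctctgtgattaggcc
Ifitm3, chr7:141010695-141010994, minus strand: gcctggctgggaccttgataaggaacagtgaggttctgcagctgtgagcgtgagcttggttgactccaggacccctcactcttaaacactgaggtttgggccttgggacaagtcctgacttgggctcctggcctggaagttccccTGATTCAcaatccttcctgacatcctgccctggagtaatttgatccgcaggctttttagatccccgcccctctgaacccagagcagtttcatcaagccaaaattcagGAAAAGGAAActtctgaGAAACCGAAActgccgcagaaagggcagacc

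Lcn2 holds none of the 5 motifs in this window, which says only that these letters are not there. Gfap holds the STAT letters at its start, C1qc and Ctss hold the PU.1/Ets letters on the opposite strand, Ctss and Ifitm3 hold the interferon element, Ifitm3 in 2 copies, and Gpnmb and Ifitm3 hold AP-1. RefSeq promoters matched 58 of the 79 genes that were at least 2-fold higher in both 1 m libraries and 11620 tested genes in all. The PU.1/Ets letters stood in 8 of the 58 (13.8%) and in 3.35% of the 11620, and AP-1 in 12 (20.7%) and 6.13%. The interferon element stood in 5 (8.62%) and 3.49%, NF-kB in 4 (6.90%) and 1.91%, and STAT in 2 (3.45%) and 1.45%. Bcl2a1b and Bcl2a1d, genes of the same family, both count among the 8 and among the 12. These shares describe letters in a window, not binding. Spi1 encodes PU.1, the factor that directs myeloid cells and microglia, and was picked with its values in view. It had 7.97 CPM in naive, 19.5 and 19.7 CPM on the infarcted side and 7.55 and 10.7 CPM on the other side. Its adjusted p was 0.0545 against naive and 0.0321 between the sides (limma). The part of PU.1, or of a factor of the other motifs, in these genes was not tested.

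At 1 m the genes with the smallest p against naive included Lcn2, Chil1, Apoc4, Ifitm3 and Mpeg1, all higher on the infarcted side. Differences are given on the log2(CPM + 1) scale, where 1 is 2-fold for a well expressed gene and less than the true ratio for a low one. At least 2-fold in both 1 m libraries, 79 of 16181 genes were higher (0.488%) and 6 were lower (0.0371%), and this count carries no test. A test was made with limma in 1 fit over all 11 libraries, in which the untreated and LEV library of a side and time act as repeats, so the 1 m difference is the mean of both and its spread comes from 4 such pairs. At an adjusted p under 0.05 it called 28 genes higher (0.173%) and 3 lower (0.0185%), and all 28 also were at least 2-fold higher in both libraries. The calls depend on that fit: edgeR on the recovered tags called 0 and 0 (914 genes at an unadjusted p under 0.05, 956 in limma), no limit on expression left 0 and 1, and leaving out the 4 infarcted and non-infarcted libraries of 7 d left 0 and 0. Leaving out 1 library also moved the counts: 78 were higher without the untreated and 292 without the LEV infarcted library, and 48 without either non-infarcted one, with 5 to 12 lower.

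**Figure D1:**
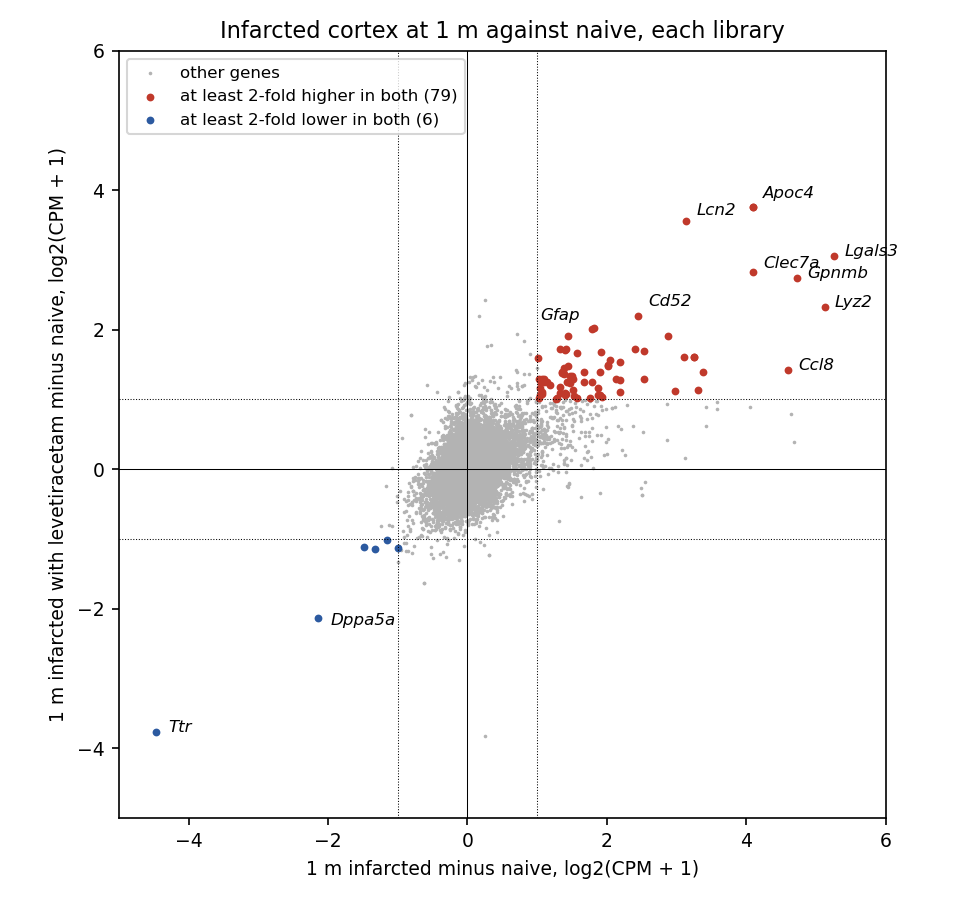
Each point is 1 of 16181 genes, with its difference from naive in log2(CPM + 1) in the untreated 1 m library on the horizontal axis and in the levetiracetam 1 m library on the vertical axis. Dotted lines mark 2-fold, red points are the 79 genes at least 2-fold higher in both and blue points the 6 at least 2-fold lower in both, and Lgals3, Gpnmb, Lyz2 and Ccl8 lie further out on the untreated axis.

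Most genes lay near naive. Without a size limit, 4627 genes (28.6%) were above naive in both 1 m libraries, 5054 (31.2%) were below in both and 6500 (40.2%) were split, and the median difference over all genes was -0.0056 in the untreated and -0.011 in the LEV library. The counts of members above or below naive in each gene list below stand beside these shares. At the 2-fold limit, Slc37a2, a sugar phosphate transporter of macrophages, was just inside with the nearer library at 1.001, and the kallikrein Klk6 just outside at 0.998. Among the 79 higher genes 74 are protein coding, 5 had 0 tags in naive and 8 share their tags with a neighbour, so that such pairs are 1 signal.

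Reactive astrocyte genes were higher on the infarcted side. Lcn2, which encodes lipocalin-2, an iron-scavenging protein released by reactive astrocytes and neutrophils, had 1.01 CPM (13 tags) in naive, 16.7 CPM in the untreated and 22.5 CPM in the LEV library, and 0.726 and 1.33 CPM on the non-infarcted side. The 2 infarcted libraries were far above the other 3, which overlapped. Lcn2 had the smallest p of all genes, with a log2 difference of 3.35 (SE 0.31; adjusted p = 0.00789, limma), and its ratio to naive was 16.6 (exact 95% interval on tags 9.50 to 31.6) and 22.4 (12.97 to 42.4). Such intervals cover counting error only.

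Gfap, the intermediate filament that marks reactive astrocytes, had 109 CPM in naive, 384 and 444 CPM on the infarcted side and 107 and 158 CPM on the other. Both infarcted libraries lay above all 3 others. It rose by 1.92 (SE 0.29; adjusted p = 0.0372, limma), a ratio of 3.54 and 4.09. Vim, vimentin, another filament of these cells, went from 18.8 CPM to 51.9 and 64.6 CPM and rose by 1.57 (SE 0.21; adjusted p = 0.0237, limma). Chil1, a chitinase-like protein secreted by reactive astrocytes and macrophages, had 10.4 CPM in naive, 31.6 and 26.9 CPM in the infarcted libraries and 8.64 and 8.38 CPM in the non-infarcted ones. It was high in the 2 infarcted libraries alone and rose by 1.41 (SE 0.17; adjusted p = 0.0150, limma). Gfap lies on chromosome 11 at 102887336 to 102900912, Lcn2 on chromosome 2 at 32384633 to 32388252, Vim on chromosome 2 at 13573927 to 13582826 and Chil1 on chromosome 1 at 134182176 to 134190181 (GRCm38).

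The reactive astrocyte list has 13 tested members, of which 12 were above naive in both libraries, 5 at least 2-fold, and 3 passed the test (Lcn2, Gfap and Vim). Its median difference was 1.44 in the untreated and 0.80 in the LEV library, and -0.02 and 0.08 in the non-infarcted ones. Serpina3n, a secreted protease inhibitor, had 6.34 CPM in naive and 18.96 and 26.7 CPM in the infarcted libraries, and missed the threshold (adjusted p = 0.0650, limma), as did the hyaluronan receptor Cd44 with 1.86, 9.48 and 5.41 CPM (adjusted p = 0.0686). Members split by treatment as well: Gfap, Vim, Lcn2 and Serpina3n were higher with levetiracetam, whereas Cd44 and Timp1, an inhibitor of matrix proteases (0.928, 5.96 and 1.72 CPM), were higher without. A2m, which encodes the protease trap alpha-2-macroglobulin, and Cntf, a ciliary neurotrophic factor made by astrocytes, are outside the list and were at least 2-fold higher in both. A2m had 2.01 CPM in naive and 9.34 and 11.1 CPM in the infarcted libraries, and Cntf 0.464 CPM and 2.80 and 2.86 CPM, with adjusted p of 0.0683 and 0.111 (limma).

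Of the 13 homeostatic astrocyte genes, which serve uptake of glutamate and potassium and the coupling of astrocytes, 7 were above and 3 below naive in both libraries, and 0 were called in either direction, with medians of 0.07 and 0.15. Aqp4, the water channel of astrocyte endfeet, had 20.6 CPM in naive and 31.7 and 35.9 CPM in the infarcted libraries (adjusted p = 0.257, limma). Kcnj10, a glial potassium channel, had 28.4, 36.4 and 34.7 CPM, and the glutamate transporter Slc1a2 had 1302, 1166 and 1285 CPM. Slc1a2 was thus slightly below naive in both infarcted libraries (adjusted p = 0.998, limma).

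Several phagocyte genes were among those with large differences. Lgals3, galectin-3, a sugar-binding protein of phagocytic microglia and macrophages, had 1.31 CPM (17 tags) in naive, 87.2 CPM in the untreated and 18.2 CPM in the LEV library, and 1.67 and 2.90 CPM on the other side. Both infarcted libraries were above the rest, but they were far from each other. Its log2 difference was 4.15 (SE 0.65; adjusted p = 0.0397, limma), and the ratio to naive was 66.4 (41.3 to 114) untreated and 13.9 (8.53 to 24.1) with levetiracetam. Gpnmb, a membrane protein of lysosomes in phagocytes that have taken up lipid, showed the same order, with 1.08 CPM, 53.9 CPM and 12.9 CPM, and rose by 3.73 (SE 0.58; adjusted p = 0.0397, limma). Clec7a, dectin-1, a receptor for fungal glucans found on activated microglia, had 1 tag in naive (0.0773 CPM) and 17.4 and 6.66 CPM in the infarcted libraries, a ratio of 86.2 (15.2 to 3429) with levetiracetam, and rose by 3.46 (adjusted p = 0.0321, limma). Lyz2, the lysozyme of myeloid cells, went from 10.1 CPM to 384 and 54.4 CPM, and did not pass (log2 3.72, SE 0.78, adjusted p = 0.139).

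Several genes of lipid transport were higher. Apoc4, an apolipoprotein gene that shares its tags with Gm44805, had 0 tags in naive and in the untreated non-infarcted library, 1.19 CPM in the LEV non-infarcted library, and 16.01 and 12.6 CPM in the infarcted libraries. Against the floor of 3 naive tags it was at least 69.01-fold higher untreated and at least 54.3-fold higher with levetiracetam, and it passed the test (adjusted p = 0.0112, limma). Its neighbour Apoc2 on chromosome 7, also at 0 naive tags, had 6.32 and 2.76 CPM, at least 27.2-fold and 11.9-fold higher, and missed the threshold (adjusted p = 0.104). Apoc1 of the same cluster rose from 8.82 CPM to 36.05 and 30.4 CPM (log2 1.80, SE 0.29, adjusted p = 0.0397, limma), and Apoe, the main lipid carrier of the brain, had 1192 CPM and then 2591 and 2126 CPM (adjusted p = 0.151). Abca1, which loads cholesterol onto such carriers, had 20.03 CPM in naive and 58.2 and 35.6 CPM (adjusted p = 0.152). All 5 were above naive in both infarcted libraries, with untreated above levetiracetam in each.

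In the list of disease-associated microglia, a state known from mouse models of amyloid disease, all 15 tested members were above naive in both libraries, 6 at least 2-fold, and 5 passed: Lgals3, Gpnmb, Clec7a, Trem2 and Spp1. The median difference was 1.18 and 0.95, against 0.05 and 0.08 on the non-infarcted side. Trem2, the lipid-sensing receptor that drives this state, rose from 9.98 CPM to 29.4 and 26.8 CPM (log2 1.40, SE 0.22, adjusted p = 0.0397, limma). Spp1, osteopontin, which shares its tags with Gm42793, rose from 5.65 CPM to 26 and 17.7 CPM (adjusted p = 0.0372). Tyrobp, the adaptor through which TREM2 signals, had 68.5, 235 and 140.3 CPM and was not called (adjusted p = 0.116).

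All 14 lysosome and lipid genes were above naive in both libraries too, with 3 at least 2-fold and 2 called, and a median of 0.81 and 0.38. Cd68, a lysosomal glycoprotein of phagocytes, had 8.66 CPM in naive, 42.8 and 26.97 CPM in the infarcted and 9.22 and 12 CPM in the non-infarcted libraries. The infarcted libraries were above the 3 others, and Cd68 rose by 1.86 (SE 0.25; adjusted p = 0.0212, limma). Ctsz, a lysosomal protease, rose by 1.23 (adjusted p = 0.0430), and Ctss, cathepsin S, which trims antigens, had 32.3, 114 and 78.2 CPM and just missed (adjusted p = 0.0536). Mpeg1, a pore-forming protein of macrophages, rose from 3.56 CPM to 23.1 and 14 CPM, and Laptm5, a lysosomal membrane protein of blood-lineage cells, from 11.6 CPM to 30.7 and 27.4 CPM (adjusted p = 0.0150 and 0.0150, limma). The surface antigen Cd52 rose from 6.81 CPM to 41.4 and 34.6 CPM (log2 2.32, SE 0.29, adjusted p = 0.0150). Cybb, the catalytic subunit of the phagocyte NADPH oxidase, had 2 naive tags and 3.30 and 2.03 CPM, a ratio of 21.4 (5.58 to 182) untreated, and passed (adjusted p = 0.0397, limma).

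**Figure D2:**
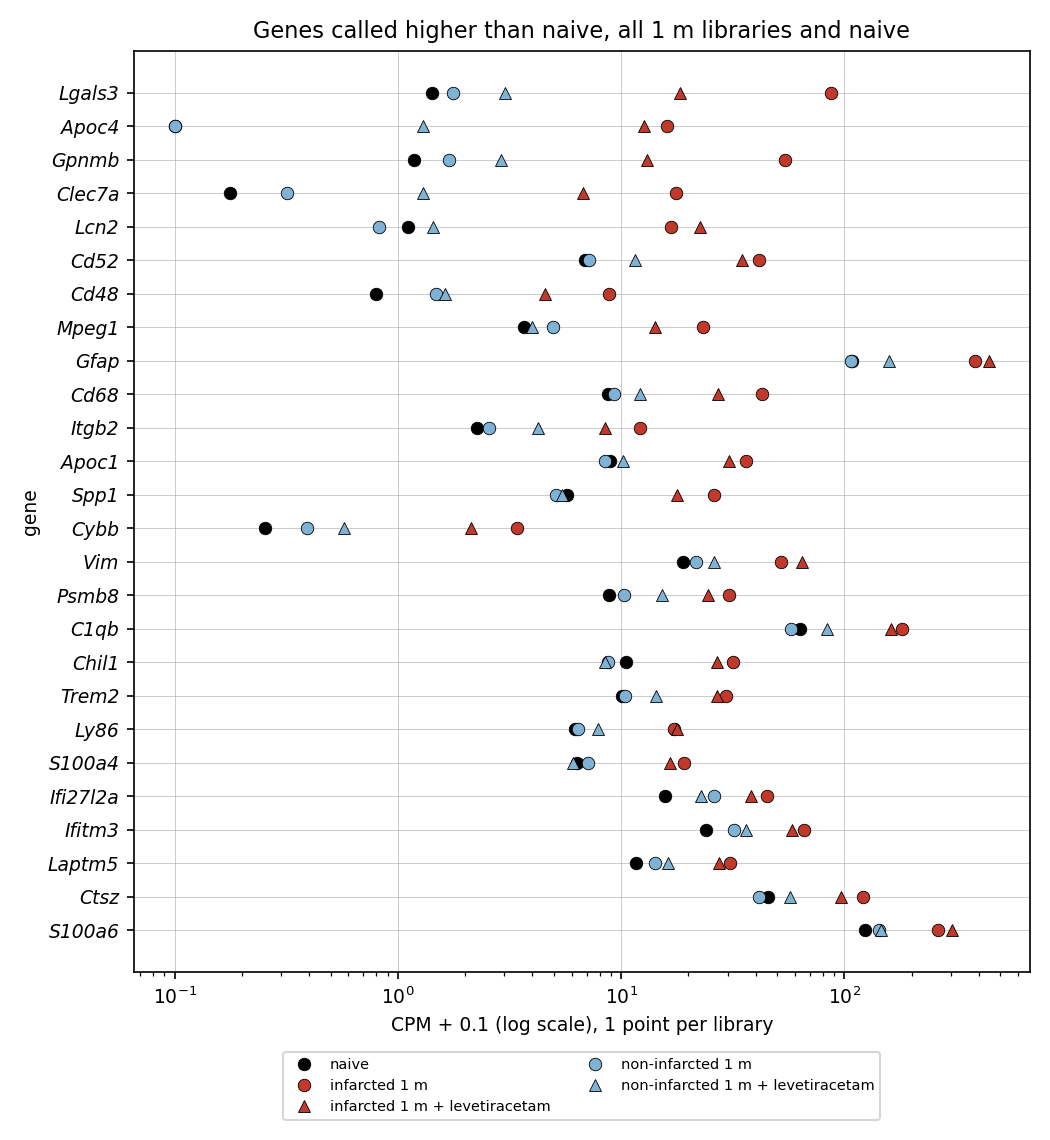
CPM + 0.1 on a log axis, 1 point per library, of 26 genes called higher than naive, ordered by log2 difference (Gm44805 and Gm42793, which share tags with Apoc4 and Spp1, are left out). Black is naive, red the infarcted and blue the non-infarcted side, with circles untreated and triangles levetiracetam. The red symbols lie right of the black one in every row, which the call itself requires.

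Other called genes encode leukocyte surface proteins and calcium-binding proteins. Itgb2, the beta-2 integrin chain of leukocytes, rose by 1.81, Cd48, a leukocyte surface ligand, by 2.11 and Ly86, the partner of a toll-like receptor, by 1.37 (adjusted p = 0.0397, 0.0397 and 0.0397, limma). S100a6 rose from 124 CPM to 262 and 304 CPM and S100a4 from 6.27 CPM to 19.1 and 16.4 CPM (adjusted p = 0.0372 and 0.0368, limma). Both encode small calcium-binding proteins, and S100a6, with Lcn2, Gfap, Vim and Ly86, is among the 5 called genes whose level was higher with levetiracetam than without, against 23 that were lower with it.

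Homeostatic microglia genes were also above naive, by less. Of 12 tested members 10 were higher in both libraries, 0 reached 2-fold in both, 0 were called, and the median was 0.58 and 0.53. The purinergic receptor P2ry12 had 18.6, 23.1 and 27.1 CPM, Aif1 (IBA1, the common microglial stain) 28.9, 61.04 and 46.1 CPM, and Tmem119, a marker of resting microglia, 15.3, 17.5 and 15.7 CPM in naive, untreated and LEV. Fcrls, an Fc receptor-like gene of microglia, had 4.49, 9.12 and 13.1 CPM (log2 1.12, adjusted p = 0.0955, limma). In the macrophage and monocyte list, 4 of 7 tested members were higher and 2 lower in both, with 0 called, and the defining markers went different ways. Ms4a7 had 2.01, 30.2 and 6.92 CPM, whereas Cd163, a scavenger receptor of perivascular macrophages, had 1.62, 0.646 and 0.989 CPM and F13a1 4.72, 4.17 and 2.60 CPM. Arg1, Ccr2 and Lyve1 of that list lay below the limit. The summed level of the list was 27.6 CPM in naive, 437 CPM untreated and 75.2 CPM with levetiracetam. Lyz2 alone was 10.1, 384 and 54.4 CPM of these sums, so they mostly follow 1 gene. The part of macrophages and monocytes in the differences of phagocyte genes was not tested.

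Complement genes were higher, led by the C1q chains that start the classical pathway. C1qb had 63.3 CPM in naive, 181 and 162 CPM in the infarcted libraries and 57.7 and 83.3 CPM on the other side, and rose by 1.42 (SE 0.22; adjusted p = 0.0394, limma). C1qa had 59.6, 151 and 198 CPM and C1qc 75.2, 198 and 206 CPM, with adjusted p of 0.118 and 0.0860. Naive and the non-infarcted libraries overlapped in all 3 chains and lay below both infarcted libraries. C4b, the next component of the pathway, had 14.9 CPM in naive and 40.8 and 50.7 CPM in the infarcted libraries (adjusted p = 0.0860). Of the 12 tested members 10 were above naive in both libraries, 5 at least 2-fold, and 2 passed (C1qb and Itgb2), with a median of 1.39 and 0.75. Serping1, the inhibitor of C1, had 7.35, 26.4 and 8.17 CPM, so it was high in the untreated library alone.

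Among 16 genes of MHC class I and its immunoproteasome, which cut and show peptides to T cells, 14 were higher and 1 lower in both libraries, and 1 was called, with a median of 0.89 and 0.51. That gene is Psmb8, an inducible proteasome subunit, with 8.74 CPM in naive and 30.2 and 24.5 CPM in the infarcted libraries (log2 1.53, SE 0.22, adjusted p = 0.0307, limma). H2-D1, a class I heavy chain, had 71.5, 211 and 139 CPM (adjusted p = 0.0650), and B2m, the light chain, 47.3, 97.02 and 117 CPM (adjusted p = 0.248). The member that was lower in both, Psmb10, had 85.1, 76.5 and 67.5 CPM. Class I genes are near-identical copies of each other, so tags of H2-K1, H2-D1 and the H2-Q genes may be split among them.

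Of 18 interferon response genes 16 were above naive in both, 1 was called, and the median was 0.66 and 0.37. Ifitm3, which restricts virus entry and is induced by interferon, had 23.8 CPM in naive, 65.6 and 58.3 CPM in the infarcted and 31.96 and 36.2 CPM in the non-infarcted libraries. The infarcted libraries were highest and the non-infarcted ones lay between them and naive, and Ifitm3 rose by 1.34 (SE 0.16; adjusted p = 0.0150, limma). Ifi27l2a, another interferon-induced gene and not in the list, showed the same order with 15.6 CPM, 44.9 and 37.95 CPM, and 26.1 and 22.6 CPM (adjusted p = 0.0372). The core interferon-stimulated genes differed less, with Ifit1 at 1.08, 2.23 and 1.93 CPM and Isg15 at 5.88, 11.6 and 7.76 CPM.

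The 2 libraries of the infarcted side also differed from each other. In the untreated library alone, 321 genes (1.98%) were at least 2-fold higher than naive and 13 (0.0803%) lower, and in the LEV library alone 141 (0.871%) higher and 34 (0.21%) lower. Of these, 242 were 2-fold higher only in the untreated and 62 only in the LEV library. Among the 79 genes higher in both, untreated exceeded LEV in 52 and LEV exceeded untreated in 27, and 13 were at least 2-fold lower with LEV and 0 at least 2-fold higher. Over all 16181 genes the same comparison gave 146 (0.902%) and 56 (0.346%). With 1 library each, the drug and the library cannot be told apart, and no test was made.

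The naive and the untreated 1 m libraries also had something in common that the LEV library lacked. Rny1, a Y RNA, which is a small noncoding RNA made by RNA polymerase III, had 20.5 CPM in naive, 24.5 CPM in the untreated infarcted and 23.6 CPM in the untreated non-infarcted library, and 0.143 to 1.37 CPM in the other 8 libraries. The same 3 libraries had the smallest totals of the series, 12928291 to 13925503 tags against 16473888 to 21000367. The labels name no batch, Rny1 was singled out after its values were seen, and the part of such a split in the gap between the untreated and LEV libraries was not tested. The untreated library is thus the 1 m infarcted library that matches naive in this respect, and its own counts against naive are the 321 and 13 above.

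MHC class II genes show this gap. Cd74, the invariant chain that guides class II molecules, had 7.35 CPM in naive, 88.3 CPM in the untreated and 11.9 CPM in the LEV library, and 6.97 and 6.10 CPM on the other side. The untreated library stood far above the 4 others. H2-Ab1 had 4.49, 64.6 and 9.68 CPM, H2-Aa 1.24, 16.6 and 3.85 CPM and H2-Eb1 1.39, 16.3 and 2.19 CPM. Of the 6 members tested 4 were above naive in both, H2-Aa at least 2-fold, and 0 were called, with a median of 2.91 untreated and 0.52 with levetiracetam.

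Some chemokines followed the same order. Ccl8, a chemokine of macrophages that was not listed, had 2.71 CPM in naive, 88.97 CPM in the untreated and 8.90 CPM in the LEV library, and Ccl6 had 4.10, 35.9 and 8.75 CPM. Ccl3, by contrast, had 1 tag in naive and 1.36 and 1.56 CPM, near each other. Of 15 chemokines and cytokines tested 13 were above naive in both, 4 at least 2-fold (Ccl3, Ccl5, Ccl9 and Cxcl16), and 0 were called, with a median of 1.30 and 0.78. Some T cell genes of low level differed between the libraries as well. Cd3d had 0.387, 2.80 and 0.208 CPM and Cd3g 0.387, 3.30 and 0.0521 CPM, the last under the floor of 3 tags. Of the 5 tested of that list 2 were above naive in both, 1 was below in both and 2 were split. The median was 1.45 and -0.20 with 0 called, and the member below was Cd4 with 3.25, 2.80 and 1.72 CPM. Ccl5, made by T cells and counted in both lists, had 0 naive tags and 2.73 and 1.09 CPM, at least 11.8-fold and 4.71-fold higher.

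Scar matrix genes were split between the libraries. Col1a1, the main fibrillar collagen, had 25.4 CPM in naive, 147 CPM untreated and 20.9 CPM with levetiracetam, and Col3a1, which shares its tags with Gm47302, had 4.64, 31.1 and 3.38 CPM. Both collagens were above naive in the untreated library and below it in the other. Of 13 matrix genes 6 were higher in both, 7 were split and 0 were called, with a median of 0.49 and -0.01. Bgn, the proteoglycan biglycan, was higher in both, with 7.43, 21.04 and 11.9 CPM.

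Markers of the vessel wall had the same order: pericyte and smooth muscle genes had 3 of 10 higher in both, 7 split, 0 called and a median of 0.59 and -0.15, with Anpep at 1.62, 8.11 and 1.67 CPM. The summed level of that list was 179 CPM in naive, 271 and 160 CPM in the infarcted libraries and 249 and 146 CPM in the non-infarcted ones, so the untreated libraries were the higher ones on both sides. Endothelial genes had 4 of 12 higher and 1 lower in both, 0 called, and a median of 0.37 and -0.12. Meningeal fibroblast genes had 5 of 11 higher and 1 lower in both, 0 called, and a median of 0.18 and 0.21, with Dcn, decorin, at 16.01, 52.6 and 29.4 CPM. The part of vessel and meningeal tissue in the collagen values was not tested.

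**Figure D3:**
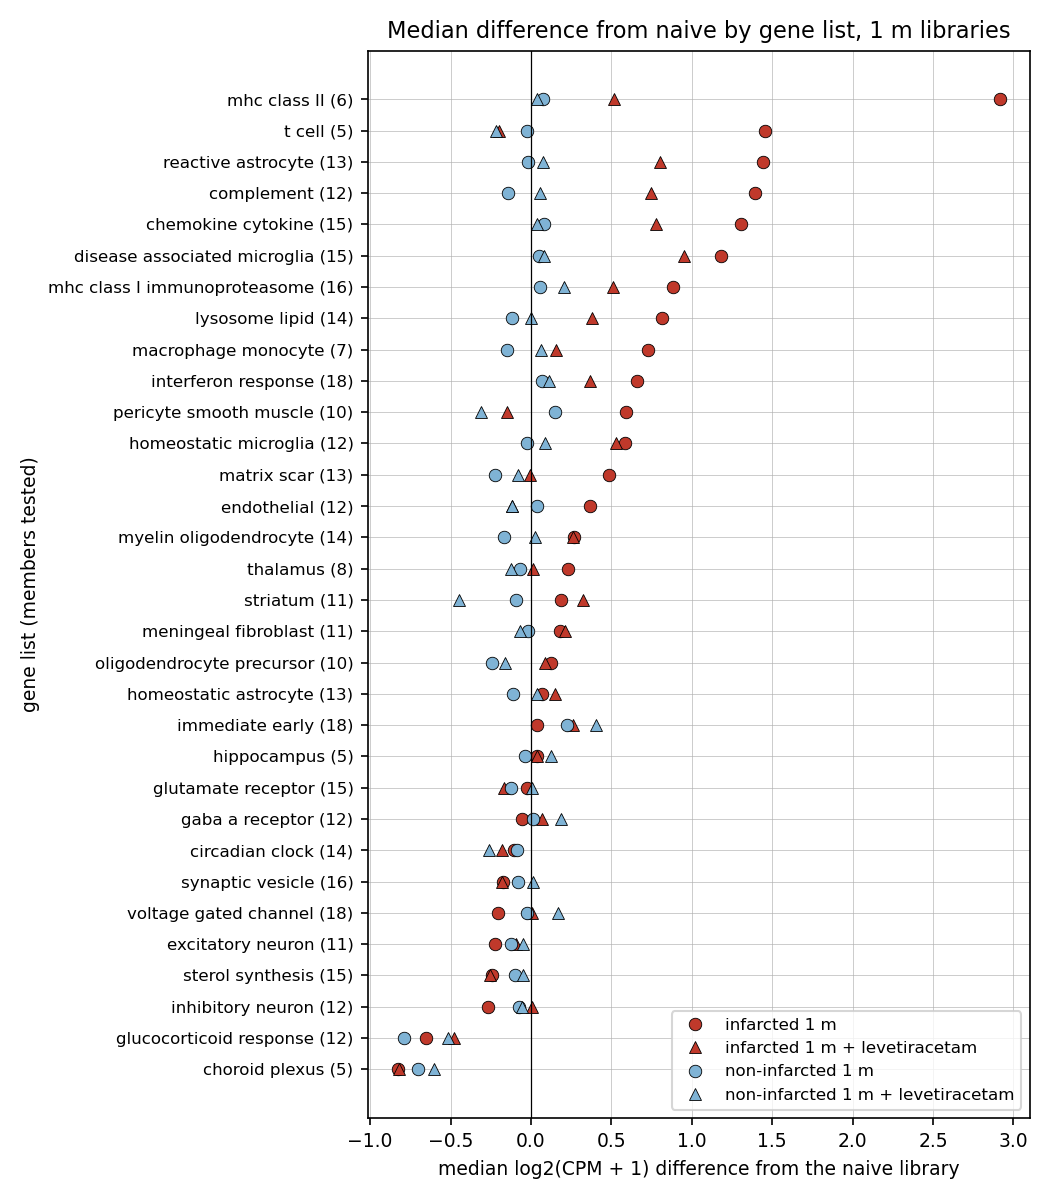
Median log2(CPM + 1) difference from the naive library of the tested members of each gene list with at least 5 of them (number in brackets), for the 4 libraries of 1 m. Red symbols of the glial, complement and MHC lists lie to the right of the blue ones. In the MHC class II and T cell lists the red untreated circle is far right of the red levetiracetam triangle.

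Myelin genes lay slightly above naive. Of 14 members 12 were higher in both libraries, 0 were called, and the median was 0.27 and 0.26, against -0.17 and 0.03 on the other side. Cldn11, the tight junction protein of myelin, had 45.2, 63.3 and 77.6 CPM in naive, untreated and LEV and 35.9 and 49.8 CPM on the other side (adjusted p = 0.696, limma). Oligodendrocyte precursor genes had 6 of 10 higher and 1 lower in both, 0 called, and a median of 0.13 and 0.09. Olig2, the lineage factor, had 14.6, 12.4 and 11.5 CPM, and Sox10 30.5, 40.2 and 50.5 CPM.

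No neuronal list held a gene that passed. Among 11 excitatory neuron genes 2 were higher and 6 lower in both libraries (median -0.22 and -0.09), and among 12 inhibitory neuron genes 2 were higher and 6 lower (median -0.27 and 0.01). Neurod2, a factor of projection neurons, had 38.6, 27.4 and 25.5 CPM, Lamp5, of a class of superficial interneurons, 105, 73.2 and 73.8 CPM, and Pvalb, of fast-spiking interneurons, 134, 96.7 and 85.6 CPM. Their adjusted p were 0.504, 0.272 and 0.647 (limma). For Pvalb the 95% interval of the log2 difference, not adjusted for the number of genes, was -1.01 to -0.10.

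Synaptic vesicle genes were lower by a small amount, with 13 of 16 below and 1 above naive in both libraries, 0 called, and a median of -0.17 and -0.18, against -0.08 and 0.01 on the other side. Vamp1, a vesicle fusion protein of fast synapses, had 94.8, 65.3 and 78.7 CPM (adjusted p = 0.730, limma), and Snap25, of the same fusion machinery, 2457, 2123 and 2113 CPM. Sv2a, the protein levetiracetam binds, had 137, 132 and 137 CPM, a log2 difference of -0.02 with a 95% interval of -0.37 to 0.32.

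GABA-A receptor subunits, through which most fast inhibition acts, were mostly split, with 2 of 12 higher and 2 lower in both and a median of -0.06 and 0.07. Gabrd, of receptors outside synapses, had 61.4, 55.01 and 64.03 CPM. Ionotropic glutamate receptor genes had 3 of 15 higher and 7 lower in both (median -0.02 and -0.17), and voltage-gated channels 2 of 18 higher and 8 lower (median -0.20 and 0.00), with 0 called in either. Over all tested genes 28.6% were higher and 31.2% lower in both, and nothing is read from these counts. The chloride exporter Slc12a5 (KCC2), on which inhibition by GABA depends, had 408, 332 and 421 CPM, and the importer Slc12a2 (NKCC1) 20.2, 23.9 and 41.6 CPM, so Slc12a2 was higher with levetiracetam than in the 2 other libraries. On the non-infarcted side Slc12a2 had 29.4 and 40.8 CPM, the same order.

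Immediate early genes, switched on by neuronal firing, had 8 of 18 members above and 4 below naive in both infarcted libraries, 0 called, and a median of 0.04 and 0.26, with 0.23 and 0.40 on the other side. Among the 4 below were Arc with 96.3, 73.8 and 77.9 CPM and Egr3 with 113, 88.3 and 84.5 CPM in naive, untreated and LEV. Egr2 and Fos were among the 8 above. Egr2 had 4.87 CPM in naive, 9.77 and 10.7 CPM on the infarcted side and 9.30 and 11.05 CPM on the other, and Fos 7.43 CPM, 10.7 and 11.9 CPM, and 11.4 and 12.4 CPM. Naive was the lowest of all 11 libraries for both genes, as it was for 820 of all tested genes (5.07%), and the sides overlapped (adjusted p against naive 0.129 and 0.440, limma). Bdnf, a growth factor gene driven by activity, had 15.5, 13.4 and 17.6 CPM.

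The non-infarcted side of the same time gives another reference, in which naive cancels and enters only through the choice of tested genes. That choice used naive and the 2 infarcted libraries. Genes seen mainly on the non-infarcted side were thus left out, which favours higher over lower counts. With no limit on expression the count between the sides was 0 higher and 0 lower. In the same fit 59 genes (0.365%) were higher on the infarcted than on the non-infarcted side at 1 m and 0 (0%) were lower (1227 at an unadjusted p under 0.05 in either direction), where edgeR called 24 and 0. Of the 28 genes called above naive 27 were among the 59, and the exception was Ifi27l2a (side difference 0.74, adjusted p = 0.121, limma), whose non-infarcted libraries lay above naive. Both contrasts use the same infarcted libraries, so this count is not independent of the first. The side count was 471 higher and 193 lower without the infarcted LEV library, 10 without the untreated non-infarcted library, and 0 without the 7 d libraries.

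Lcn2 had the smallest p between the sides too (log2 3.34, adjusted p = 0.00105, limma), then Chil1 (1.66, adjusted p = 0.00132) and Apoc4 (3.36, adjusted p = 0.00532). Several genes that missed the threshold against naive passed between the sides: C4b (1.47, adjusted p = 0.0321), Serpina3n (1.62, 0.0235), A2m (2.15, 0.0131), Ctss (1.45, 0.0206), Apoe (1.08, 0.0321) and Cntf (1.59, 0.0206). Igfbp5, a binding protein of insulin-like growth factors, is in no list and passed as well, with 158 CPM in naive, 421 and 283 CPM on the infarcted and 140.1 and 175 CPM on the other side (adjusted p = 0.0321). By list, the side test called 9 of 15 disease-associated microglia genes, 4 of 13 reactive astrocyte, 4 of 12 complement, 4 of 14 lysosome, 3 of 16 MHC class I and 1 of 18 interferon genes, and 0 in the homeostatic microglia, matrix, myelin, neuronal and synaptic lists.

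Against naive, limma called 0 genes on the non-infarcted side (642 at an unadjusted p under 0.05, smallest adjusted p 0.0598). Of the 79 genes, 72 were within 2-fold of naive in both non-infarcted libraries, with a median of 0.10 and 0.43 over the 79. The share of all tested genes within that limit was not counted, so nothing is read from the 72. Both medians are set against the same naive library as the infarcted values.

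**Figure D4:**
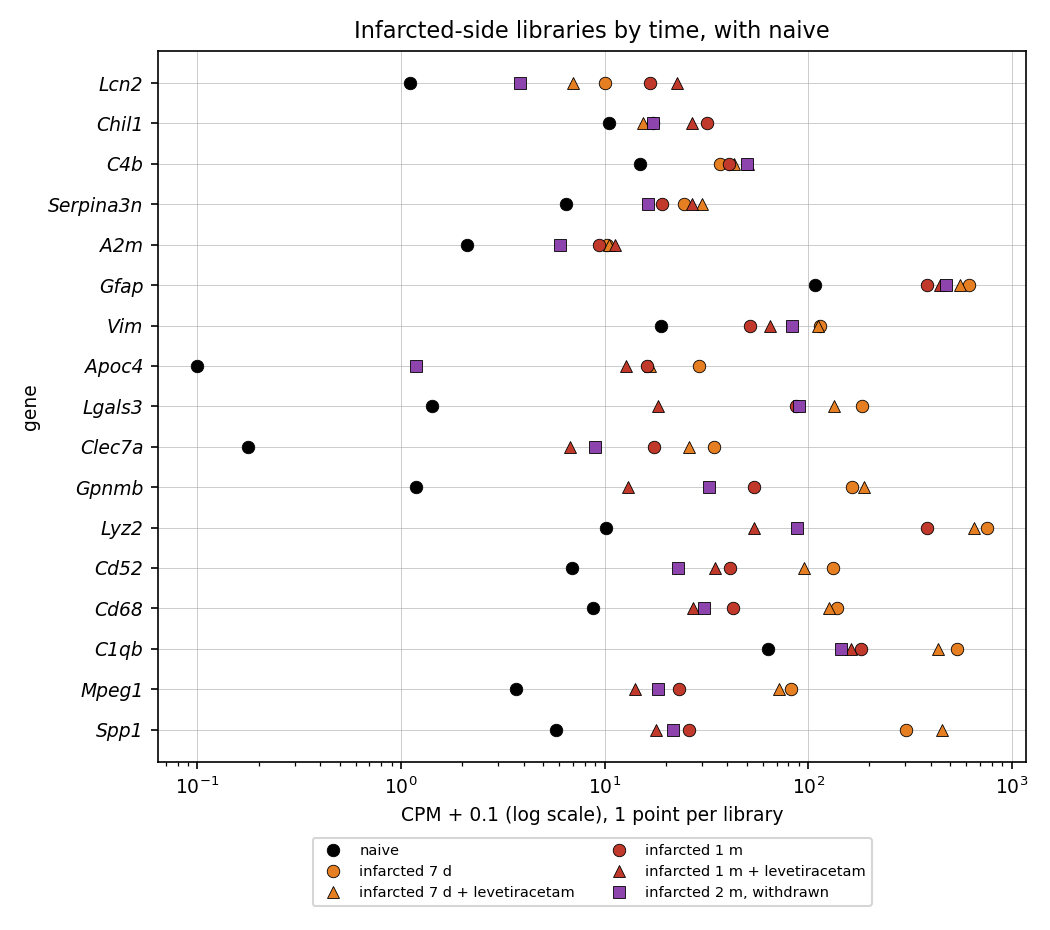
CPM + 0.1 on a log axis of 17 glial and phagocyte genes in the naive library (black) and the 5 infarcted-side libraries at 7 d (orange), 1 m (red) and 2 m after withdrawal (purple), with triangles for levetiracetam. Most genes are highest at 7 d. Lcn2 and Chil1 are highest in the 1 m libraries, and C4b is highest in the levetiracetam library of 1 m.

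Most of these genes were lower at 1 m than at 7 d. In the same fit, 1170 genes (7.23%) were lower and 352 (2.18%) higher at 1 m than at 7 d on the infarcted side. Of the 79 genes above naive 50 were lower and 2 higher than at 7 d. In 62 of the 79 both 1 m libraries were below both of 7 d, as they were in 32.1% of all tested genes. These contrasts share the 1 m libraries. The untreated 1 m library also differs from those of 7 d in Rny1 and in total tags, and the part of that split was not tested. Cd52 had 132 and 95.7 CPM at 7 d, 41.4 and 34.6 CPM at 1 m and 22.9 CPM at 2 m, and Mpeg1 81.97 and 71.8, 23.1 and 14, and 18.2 CPM. Spp1 fell furthest among the 79, from 303 and 456 CPM to 26 and 17.7 CPM (log2 -4.05, adjusted p = 1.32e-05, limma).

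The 2 genes of the 79 called higher at 1 m than at 7 d were Lcn2, from 10.01 and 6.90 CPM to 16.7 and 22.5 CPM (log2 1.13, adjusted p = 0.0209, limma), and Chil1, from 17.2 and 15.3 CPM to 31.6 and 26.9 CPM (log2 0.81, adjusted p = 0.00553). At 2 m they stood at 3.76 and 17.3 CPM, below both 1 m libraries. Gfap had 615 and 558 CPM at 7 d and 477 CPM at 2 m, with a difference between 1 m and 7 d of -0.50 (adjusted p = 0.204). C4b had 36.9 and 43.2 CPM at 7 d, 40.8 and 50.7 CPM at 1 m and 49.9 CPM at 2 m. By list, 13 of 13 matrix, 13 of 14 lysosome, 12 of 15 disease-associated microglia, 13 of 18 interferon and 7 of 12 complement genes were lower at 1 m than at 7 d, against 4 of 13 reactive astrocyte genes with 1 higher. In the 2 m library 77 of the 79 genes were above naive (62.3% of all tested genes), 43 below both 1 m libraries (25.5%) and 10 above both (48.4%). The 79 were chosen for being low in naive and high at 1 m, which favours these counts, and nothing is read from them.

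The MHC class II genes kept another course, with Cd74 at 22.1 and 25.6 CPM at 7 d, 88.3 and 11.9 CPM at 1 m and 60.2 CPM at 2 m, and H2-Ab1 at 24.05 and 24.9, 64.6 and 9.68, and 38.7 CPM. Only the untreated 1 m and the 2 m library lay above 7 d, and the 1 m LEV library lay below it. The difference between 1 m and 7 d was not called for either (adjusted p = 0.689 and 0.963, limma).

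Of the 6 genes at least 2-fold lower than naive in both infarcted libraries, 2 were also at least 2-fold lower in both non-infarcted ones (Dppa5a and Plin4) and 2 were within 2-fold in both (Hbb-bt and Myhas). Ttr, transthyretin, a carrier of thyroid hormone made by the choroid plexus, had 349.7 CPM in naive, 14.9 and 24.7 CPM on the infarcted side and 19.8 and 195 CPM on the other, with 9.79 to 195 CPM over all 10 libraries after stroke. Naive was the highest of 11, and the LEV non-infarcted library was the nearest to it. The log2 difference was -4.12 (SE 0.92) and was not called (adjusted p = 0.161, limma). The other tested choroid plexus genes followed in smaller measure, with Clic6 at 8.12, 3.30 and 4.16 CPM and Kcnj13 at 4.72, 2.23 and 2.08 CPM, so that 5 of 5 were lower in both libraries (median -0.83 and -0.82, and -0.70 and -0.60 on the other side). How much choroid plexus tissue each library holds was not tested.

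The 3 genes called lower were Dppa5a, Zbtb16 and Plin4. Dppa5a, known from early embryos and stem cells, had 44 tags in naive (3.40 CPM) and 0 in all 10 other libraries, so its own spread after stroke is 0 and the spread in the test came from other genes (log2 -2.14, adjusted p = 0.0150, limma). Zbtb16, a zinc finger factor induced by glucocorticoid hormone, had 63.04 CPM in naive, 31.2 and 24.5 CPM on the infarcted and 32.9 and 29.5 CPM on the other side. It fell by 1.16 (SE 0.18; adjusted p = 0.0397), and the sides overlapped (side difference -0.17, adjusted p = 1.00). Plin4, which coats lipid droplets in fat and muscle, had 16.5 CPM, 5.96 and 6.87 CPM, and 4.28 and 5.43 CPM, and fell by 1.24 (SE 0.20; adjusted p = 0.0468; side difference 0.34, adjusted p = 0.709).

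**Figure D5:**
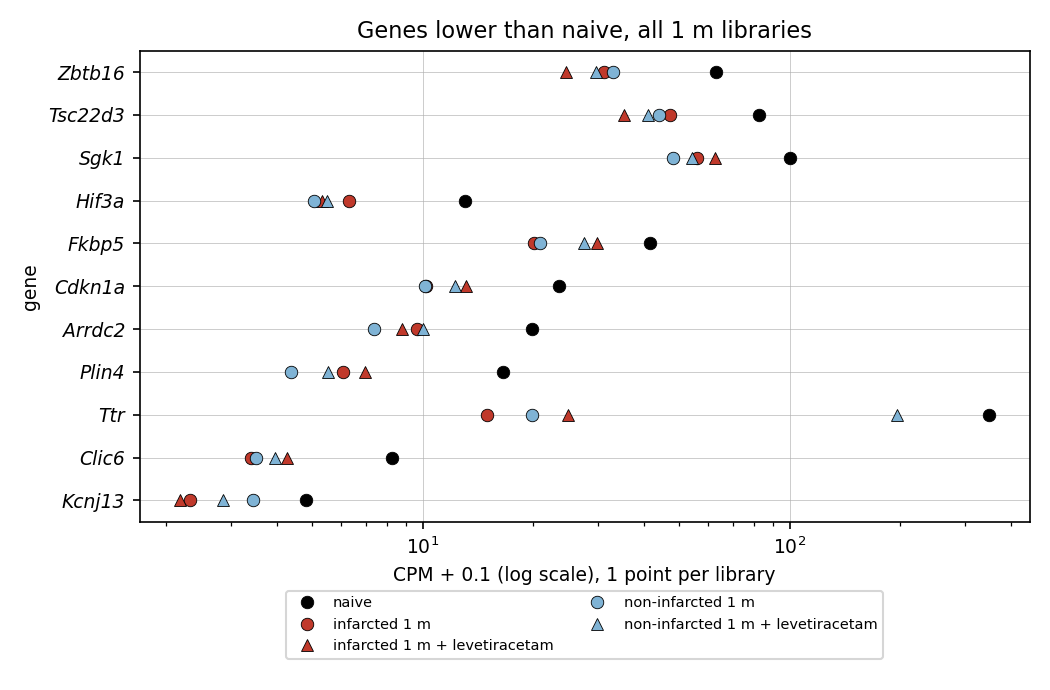
CPM + 0.1 on a log axis, 1 point per library, of 11 glucocorticoid-related, fat and choroid plexus genes that were lower than naive. Naive (black) lies to the right in every row, and infarcted (red) and non-infarcted (blue) symbols lie close together, except for Ttr in 1 non-infarcted library.

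The 6 genes at least 2-fold lower were Ttr, Dppa5a, Plin4, 2900040C04Rik, Hbb-bt and Myhas. Naive was the highest of all 11 libraries for each of the 6, and for 876 of all tested genes (5.41%). The 6 were chosen for being high in naive, which favours this count, and nothing is read from it. The 2-fold limit fell between Myhas, a noncoding RNA, whose nearer library was at -1.002, and Zbtb16 at -0.99. Both beta globin genes of red blood cells were lower, Hbb-bs with 132, 70.9 and 62.8 CPM and Hbb-bt with 25.4, 10.9 and 12.1 CPM (adjusted p = 0.963 and 0.902, limma). On the other side Hbb-bs had 82.7 and 79.7 CPM, and at 7 d and 2 m on the infarcted side 61.96, 17.6 and 14.9 CPM. The globin genes are near-identical copies, and blood left in the tissue at collection was not tested as their source.

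Glucocorticoid-responsive genes were lower in 10 of 12 members in both libraries, with 1 called (Zbtb16) and a median of -0.65 and -0.48, against -0.79 and -0.51 on the other side. Tsc22d3 (GILZ), which mediates hormone effects, had 82.4 CPM in naive, 46.96 and 35.2 CPM on the infarcted side, 43.8 and 41.1 CPM on the other, and 72.6 and 76.1 CPM at 7 d. All 4 libraries of 1 m were below naive and below 7 d (adjusted p = 0.0545 against naive and 0.00402 against 7 d, limma). Sgk1, a hormone-induced kinase, showed the same pattern with 100.01 CPM in naive, 55.7 and 62.3 CPM at 1 m and 102 and 130.4 CPM at 7 d, and passed against 7 d (adjusted p = 0.00257) and not against naive (0.181). Hif3a had 12.9, 6.18 and 5.21 CPM, and Fkbp5, a chaperone that dampens the hormone receptor, 41.4, 19.96 and 29.7 CPM. The 2 metallothioneins went the other way, with Mt2 at 224, 272 and 762 CPM and 521 CPM in the LEV library of the other side, so they were high with levetiracetam on both sides.

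Clock genes, which depend on the hour of collection, had 9 of 14 lower and 1 higher in both libraries, 0 called and a median of -0.11 and -0.18. Per3 had 61.8, 52.8 and 41.9 CPM and Ciart 20.7, 16.1 and 12.6 CPM. Hour of death and handling are not given in the sources used here, and their part was not tested. All 15 genes of cholesterol synthesis were below naive in both libraries, by a median of -0.24 and -0.25, with -0.10 and -0.05 on the other side, and 0 were called. Insig1, the sterol sensor, had 76.7, 61.1 and 49.8 CPM (adjusted p = 0.656, limma). The 15 genes are regulated together and are not independent of each other.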

How the data were processed

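Capped 5′ ends of RNA were counted by CAGE in 11 mouse cortex libraries. The authors deposited 1 table of CPM per gene, and DESeq2 1.20.0, HISAT2 2.0.5, BWA 0.7.17 and the build GRCm38 are listed, with no role for each, per the submitters' processing notes. The counting tool and annotation are not given in the sources used here. Every CPM value was a whole number of tags of its library within 0.01 tag, and tags were recovered from them. Positions came from GENCODE M21 (99.8% of genes matched), and 1133 genes share tags with an overlapping or neighbouring gene.

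The members of the comparison and the gene lists were chosen with earlier results of these data known. Genes with a mean of at least 1 CPM over the 3 libraries were tested on log2(CPM + 1) with limma 3.58.1 (trend, R 4.3.3) in 1 fit over 11 libraries in 7 groups, with the untreated and LEV library of a side and time in the same group, and adjusted by Benjamini-Hochberg over all 16181 genes. The alternative test was edgeR 4.0.16 (quasi-likelihood) on the recovered tags, and the scripts were tested on simulated data. Genes named are the 12 highest and 12 lowest by the 1 m library nearer to naive, the 12 called genes with the smallest p, up to 4 per list, and a panel of 17, some of which are not reported here; Igfbp5, Rny1, Spi1 and other genes outside it were picked with their values in view. Ratios of tags have exact binomial 95% intervals, and a count of 0 was set to a floor of 3 tags.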

Additional observations from a re-analysis of the deposited data

Results flagged for a closer look

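The difference between infarcted and naive cortex at 1 m was larger than that between non-infarcted and naive cortex for 59 genes (limma, adjusted p under 0.05). It was tested as 1 contrast in which the naive library cancels, on genes chosen by their level in naive and the infarcted libraries. Lcn2, Chil1 and Apoc4 had the smallest p, and Ctsd, Cd9 and Fcer1g, of lysosomes and phagocyte membranes, were among the genes called that are not described above. The value was 24 with edgeR.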

How the results depend on the processing

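The limits are set by 1 library per group. Against the 28 higher and 3 lower genes, the 3 libraries alone gave 102 and 10, edgeR 0 and 0, no expression limit 0 and 1, TMM factors 11 and 1, median centring 16 higher, all 5 infarcted libraries against naive 0 higher, a limit of 5 CPM 1 lower, and leaving out the 7 d libraries (chosen after seeing the data) 0 and 0. Leaving out 1 library gave 48 to 292 higher and 5 to 12 lower. For the 2-fold counts of 79 and 6, a pseudocount of 0.25 gave 164 and 20, no limit 11 lower, a limit of 5 CPM 3 lower, and 1 library left out 136 to 326 and 13 to 35. Between the sides (59 and 0), edgeR gave 24, no limit 0, median centring 32, TMM 26, no 7 d libraries 0, and 1 library left out 10 to 471 higher and 0 to 193 lower. With drug state as a replicate block the sides gave 106 and 5. No paired analysis was possible against naive because it is 1 library. The cause of these shifts was not tested. No result reversed. For single genes, 467 values kept their state, which includes genes called in neither setting, such as Slc1a2 and Sv2a. A call was lost in 156 values and gained in 24, and 7 values of uncalled genes changed sign. Of list medians 214 stayed and 36 moved. With 0.156 to 0.232 CPM for 3 tags, low genes such as Clec7a and Apoc4 have no firm ratio.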

Other observations

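Among the listed markers of tissue next to the cortex none passed against naive (limma). Of 11 striatal genes 8 were higher in both infarcted libraries (median 0.19 and 0.33), while the non-infarcted medians were -0.09 and -0.45, and the dopamine receptor gene Drd2 had 14.6 CPM in naive, 14.5 and 30.8 CPM on the infarcted and 15.8 and 12.1 CPM on the other side. Of 8 tested thalamic genes 3 were higher and 2 lower in both (median 0.23 and 0.01), with Prkcd at 7.74, 16.2 and 11.5 CPM in naive, untreated and LEV. Of 5 tested hippocampal genes 3 were higher and 1 lower (median 0.04 and 0.04).

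Neutrophil genes had 3 of 4 tested members above naive in both libraries (median 1.06 and 0.79, 0 called), with Csf3r, the receptor for granulocyte growth factor, at 2.40, 7.97 and 6.25 CPM and S100a9 at 3.17, 7.61 and 8.33 CPM. Ngp, Ltf and Retnlg of that list lay below the limit. The antibody gene Ighm, the 1 tested B cell marker, had 4.56, 3.23 and 3.18 CPM. Of 14 cell cycle genes 4 were tested and 10, among them Mki67 and Top2a, were below 1 CPM, and Pcna had 47.0, 50.1 and 47.7 CPM.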
